A study of Ovis aries with 3 samples.

Results

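MicroRNAs (miRNAs) are short RNAs of about the length of a sequencing read of this kind, cut from hairpin precursors and loaded onto Argonaute proteins. They repress mRNAs that pair with their seed, bases 2 to 8 from the 5′ end. MiRBase numbers miRNAs in the order in which they were registered, so that the low numbers are mostly miRNAs shared by mammals and the high numbers are mostly entries found later by deep sequencing, many of them in 1 species. Some late entries were registered on the strand opposite a well-known miRNA, and others have since been traced in human or mouse to fragments of tRNA, snoRNA or mitochondrial RNA.

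The entries described here are those of the deposited hsa-, mmu- and rno-miRNA table with a miRNA number of 1000 or more, such as miR-3184, miR-4291, miR-4484 and miR-4532. That table holds 534 entries. Such a number was carried by 126 of them, and 2 of these were left out because they lie in the large imprinted miRNA cluster on chromosome 18, leaving 124. Both deposited merged tables together hold 636 entries, 102 of them oar-miRNAs. Entries numbered under 1000, let-7 included, are called conserved entries below, as a working name for the number and not as a measure of conservation.

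Small RNA was sequenced from left ventricular tissue of Coopworth ewes, with 1 pooled library for each of 3 groups. The HF-R library pooled 4 sheep that had recovered from heart failure after pacing ended, the HF library pooled 6 sheep in which rapid pacing of the left ventricle had brought on heart failure, and the Cont library pooled 4 normal sheep without treatment. The labels give pacing at about 220 bpm for 13 days with 26 days of recovery in one field, and 225 bpm for 14 days with a further 14 days of recovery in another. Values are raw counts of reads per entry. Where overlapping entries had identical counts in each of the 3 libraries, they were taken once and credited to the conserved entry, which left 621 distinct entries with 5990078 counts in HF-R, 6154795 in HF and 4711131 in Cont. CPM is the count per 1000000 of these totals, and a ratio between libraries is a ratio of CPM with an exact (Clopper-Pearson) 95% interval. Entries were called higher or lower where the ratio lay 1.5-fold or more from 1 and the interval excluded 1. Ratios were also computed with edgeR's TMM factors and DESeq2's size factors, which scale the libraries by the bulk of their entries. They are given beside a ratio where its call ends. With 1 pool per group the variation among sheep was not measured, and the intervals describe counting error alone. Every ratio is between 2 libraries and not between conditions, and no p-value between groups was computed. The heart muscle miRNAs miR-499a-5p and miR-208b-3p, encoded within myosin genes, were present in every library, with 254773 and 6108 counts in HF-R, 322724 and 7873 in HF, and 200857 and 4316 in Cont. In pooled tissue, a change in the cells present and a change in RNA per cell cannot be told apart.

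The sequences below are shown because they carry the main observation, that many late-numbered entries share bases with a conserved miRNA. Of the 43 averaging 10 counts or more, 21 shared an exact run of at least 14 bases with a conserved entry. The sequences shown are the deposited entry sequences, written with T, 5′ to 3′. In the first set, capitals mark the run of bases in which the late-numbered entry is the exact reverse complement of the conserved miRNA listed under it.
hsa-miR-3184-5p: TGAGGGGCCTCAGACCGAGCTttt
hsa-/mmu-/rno-miR-423-3p: AGCTCGGTCTGAGGCCCCTCAgt
rno-miR-3588: TCACAAGTTAGGGTCTCAGGGA
hsa-/mmu-/rno-miR-125b-5p: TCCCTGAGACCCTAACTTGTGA
rno-miR-3574: TCAGCCGCTGTCACACGCACAG
hsa-/mmu-/rno-miR-210-3p: CTGTGCGTGTGACAGCGGCTGA
hsa-miR-3529-3p: aACAACAAAATCACTAGTCTTCCA
hsa-/mmu-/rno-miR-7-5p: TGGAAGACTAGTGATTTTGTTGT
hsa-/mmu-miR-3074-5p: GTTCCTGCTGAACTGAGCCAg
hsa-/mmu-/rno-miR-24-3p: TGGCTCAGTTCAGCAGGAACag
rno-miR-3596c: ACTATACAACCTCCTACCTCA
hsa-/mmu-/rno-let-7e-5p: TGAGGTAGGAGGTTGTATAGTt

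In the second set, capitals mark the longest run that the late-numbered entry shares with a conserved miRNA in the same sense. The sequences of miR-185-5p and miR-339-5p are those printed for the probes of the study's miRNA array, with U written as T. Neither name occurs in the sequencing tables used here.
hsa-miR-4291: TTCAGCAGGAACAGct
hsa-/mmu-/rno-miR-24-3p: tggctcagTTCAGCAGGAACAG
hsa-miR-4318: CACTGTGGGTACatgct
hsa-/mmu-/rno-miR-106b-3p: ccgCACTGTGGGTACttgctgc
hsa-miR-4306: TGGAGAGAAAGGCAGTa
hsa-miR-185-5p: TGGAGAGAAAGGCAGTtcctga
rno-miR-3586-5p: TCCCTGTCCTCaaggag
hsa-miR-339-5p: TCCCTGTCCTCcaggagctcacg

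The 124 late-numbered entries were mostly partial matches from 1 species. A perfect match to the miRBase sequence was given for 37 and a match of 70 to 99% (partial) for 87, or 70.2%, against 138 of the 408 entries of the same table numbered under 1000, or 33.8%. A single species named 116 of the 124 (93.5%), with 77 hsa- only, 20 rno- only and 19 mmu- only, against 213 of 408 (52.2%). The remaining 8 named several species, and miR-3074-3p was the one entry that named all 3. Their sequences ranged over 16 to 27 nt with a median of 20.5 nt, against 22 nt for the entries numbered under 1000, and 42 were 18 nt or shorter, against 10 of 408.

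Most late-numbered entries had few reads. The median of the mean count over the libraries with a value was 4, against 14.5 for the entries numbered under 1000. An average of 10 counts or more was reached by 43 of 124 (34.7%), of which 15 were perfect and 28 partial matches, against 228 of 408 (55.9%). An average of 100 or more was reached by 20. The 43 held 99.9% of all counts of late-numbered entries as deposited, repeated counts included. They had a count in every library, while the other 81 had a median of 2 counts. At least 1 count was found for 101 of the 124 in HF-R, 105 in HF and 92 in Cont.

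Late-numbered entries that did not repeat the counts of a conserved entry held 0.991% of all counts in HF-R (95% interval 0.983 to 0.999%), 1.23% in HF (1.22 to 1.24%) and 1.12% in Cont (1.11 to 1.13%). With every entry counted as deposited, repeats included, these shares were 2.46% in HF-R, 3.58% in HF and 3.79% in Cont, so that the order of HF and Cont turned round. The difference lies in 8 late-numbered entries that repeat other entries, above all miR-3557-5p.

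Of the 124, 27 lay at the place of a conserved entry on the opposite strand, with an overlap of 18 to 23 nt (median 21). They were 16 perfect and 11 partial matches, 18 averaged 10 counts or more, and 7 averaged 100 or more. No late-numbered entry overlapped a conserved entry on its own strand. By sequence alone, 32 shared an exact run of at least 14 bases with a conserved entry, 29 of them as the reverse complement, and these 32 included all 27.

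The reads that the deposited tables list for each entry were set beside these loci. This was added once the tables had been examined. The tables name each distinct read once and give no count per read, so a share here is of listed reads added over the 3 libraries and not of counts. In each library 18 to 25 lists of partial matches fill a spreadsheet cell and end there, among them those of abundant conserved miRNAs, so the number of shared reads is a minimum. For the 18 opposite-strand entries averaging 10 counts or more, 3761 of 3766 listed reads (99.9%) matched the reverse complement of the entry better than the entry itself. In no entry was this share below 96.2%. Of the 3766 reads, 3738 (99.3%) were also listed under a conserved miRNA name, but 2956 of the 3766 belong to miR-3184-5p alone. By entry, this share was 0% for hsa-miR-3529-3p, rno-miR-3590-5p and hsa-/mmu-miR-3074-5p and 20% for rno-miR-3596d. It was at least 94% for the other entries. The 18 opposite-strand entries held 81.8% of all counts of late-numbered entries as deposited, repeats included. Most of these counts are those of miR-3557-5p, which repeat the counts of hsa-miR-378a-3p.

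**Figure D1:**
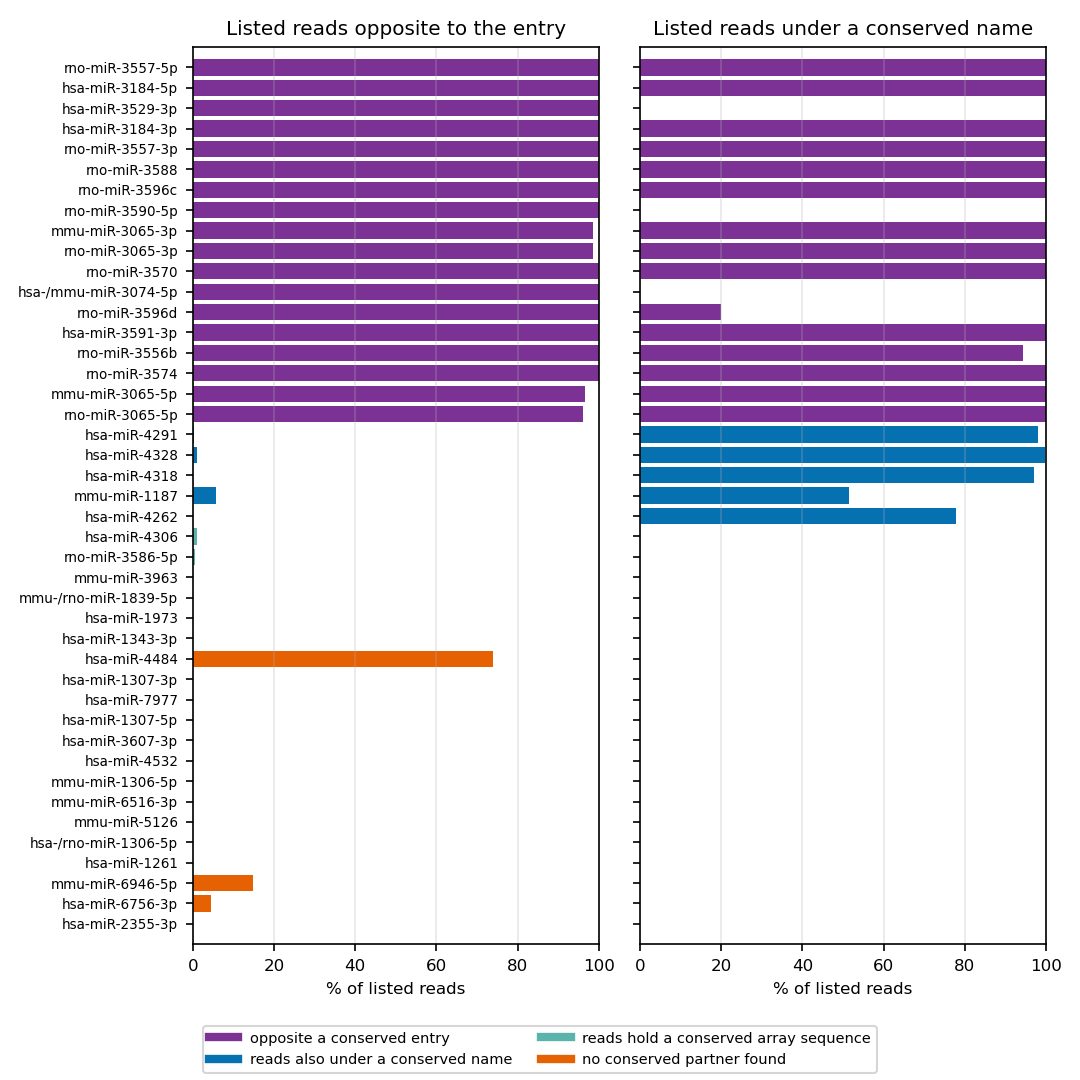
Percent of the listed reads of each of the 43 late-numbered entries averaging 10 counts or more that match the reverse complement of the entry better than the entry (left) and that are also listed under a conserved miRNA name (right), added over the 3 libraries. Bars are coloured by relation to conserved miRNAs. All 18 entries opposite a conserved entry sit at 96.2% or more on the left, and hsa-miR-4484 (73.8%) is the one other entry above 50%.

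Among the perfect matches averaging 10 counts or more, each library table listed 1 read per name. For 7 entries this read was the reverse complement of the entry, as for miR-3557-5p, miR-3184-3p and miR-3574, and for 7 others it was the entry's own sequence, as for miR-1839-5p, miR-1307-3p and miR-3607-3p. The last of the 15, hsa-/mmu-miR-3074-5p, listed reads under its human and its mouse name, and all were opposite to the entry.

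Counts identical to those of the conserved entry across from them, library by library, were carried by 7 opposite-strand entries.
Rno-miR-3557-5p had 90168 counts in HF-R, 154925 in HF and 131555 in Cont, the counts of hsa-miR-378a-3p, a miRNA encoded within the gene of the metabolic coactivator PGC-1β. HF-R was the low library, at 0.54 of Cont by CPM (0.53 to 0.54) and 0.60 of HF (0.59 to 0.60; 0.76 with TMM and 0.73 with DESeq2, not called), while the HF/Cont ratio was 0.90 (0.89 to 0.91). The mmu-/rno- form of miR-378a-3p, which ends 1 base earlier, has 14586, 30500 and 19067 counts in HF-R, HF and Cont, with an HF/Cont ratio of 1.22 (1.20 to 1.25), above 1 where that of miR-3557-5p was below.
Hsa-miR-3184-3p had 4661 counts in HF-R, 3869 in HF and 5182 in Cont, the counts of hsa-/mmu-miR-423-5p, a miRNA measured in human plasma as a marker of heart failure. Its HF/Cont ratio was 0.57 (0.55 to 0.60).
Rno-miR-3557-3p had 1243 counts in HF-R, 1510 in HF and 1297 in Cont, the counts of miR-378a-5p, and no ratio of it passed 1.5 in either direction.
Rno-miR-3588 had 656 counts in HF-R, 1549 in HF and 594 in Cont, the partial-match counts of miR-125b-5p. MiR-125b-5p is a miRNA of many tissues related to worm lin-4. HF stood apart, with an HF/Cont ratio of 2.00 (1.81 to 2.20) and an HF-R/HF ratio of 0.44 (0.40 to 0.48).

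The other equal pairs had low counts. Rno-miR-3570 had 27 counts in HF-R, 34 in HF and 54 in Cont, as did miR-181a-3p, with an HF/Cont ratio of 0.48 (0.30 to 0.75). The partial-match counts of both names were larger, at 110 in HF-R, 110 in HF and 112 in Cont. Their HF/Cont ratio was 0.75 (0.57 to 0.99), short of a call. Rno-miR-3574 had 18 counts in HF-R, 30 in HF and 7 in Cont, as did miR-210-3p, a miRNA induced by low oxygen, with an HF/Cont ratio of 3.28 (1.41 to 8.85). Hsa-miR-3065-5p had 1, 3 and 3 counts in HF-R, HF and Cont, as did rno-miR-338-3p, too few for a ratio. Both miR-3065-3p entries, which overlap each other, had 48 counts in HF-R and 44 in HF, as did miR-338-5p, and 50 in Cont, where miR-338-5p had 51. The counts of these entries and of miR-338-5p are partial-match counts.

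**Figure D2:**
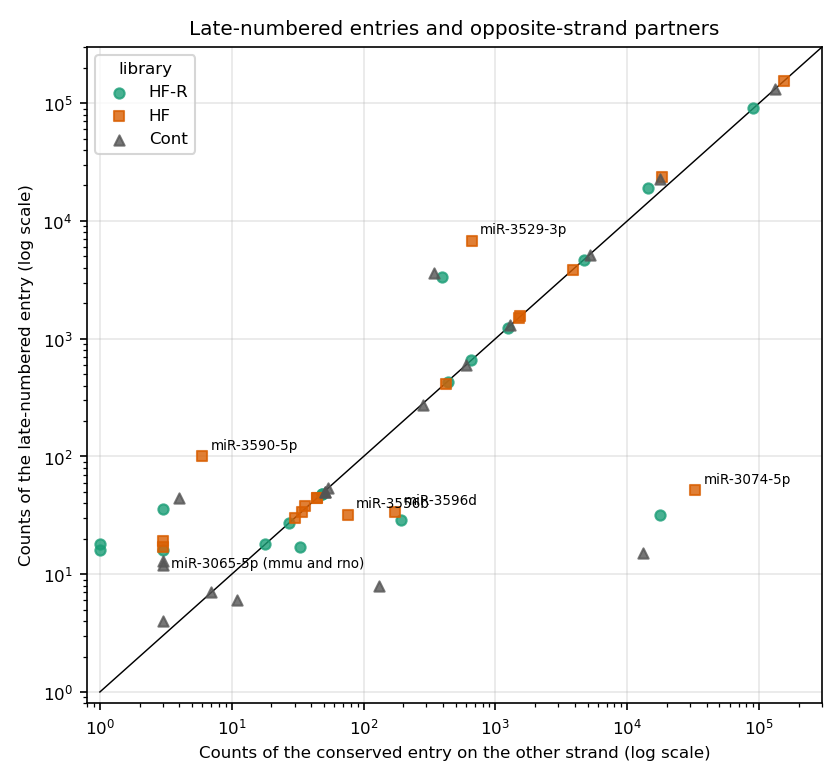
Counts of the 18 late-numbered entries averaging 10 counts or more (y axis, log scale) against the counts of the conserved entry on the other strand in the merged table (x axis, log scale), with 1 point per library and a line where both are equal. Many points lie on the line, and the entries whose mean differs more than 2-fold from that of the partner are named, among them miR-3529-3p with 6802 counts in HF against 663 for miR-7-5p.

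Opposite-strand entries with counts of their own also had reads on the conserved strand. Hsa-miR-3184-5p, on chromosome 11 (20829109 to 20829132, minus strand, build Oar v4.0), had 19024 counts in HF-R, 23535 in HF and 22880 in Cont. Opposite it lies miR-423-3p, with 14356, 18317 and 17696 perfect-match counts and 19080, 23588 and 22951 partial-match counts in the same libraries. All 2956 reads listed for miR-3184-5p were opposite to it, and 2954 of them were also listed for miR-423-3p. The HF-R/Cont ratio of miR-3184-5p was 0.65 (0.64 to 0.67; 0.68 with DESeq2, not called) and its HF/Cont ratio 0.79 (0.77 to 0.80), while the HF/Cont ratio of miR-423-3p was 0.79 in both match classes.

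Hsa-miR-3529-3p, on chromosome 2 (35588007 to 35588030, minus strand), had 3340 counts in HF-R, 6802 in HF and 3626 in Cont. The read listed for it is the reverse complement of the entry, which is miR-7-5p, a miRNA of neural and endocrine tissue, with 1 more base at its 3′ end. MiR-7-5p itself, without that base, had 395 counts in HF-R, 663 in HF and 340 in Cont. The longer form therefore had the higher count in each library. MiR-3529-3p was called lower in HF-R than in HF, with a ratio of 0.50 (0.48 to 0.53). The HF/Cont ratio was 1.44 for miR-3529-3p, with an interval above 1, and 1.49 (1.31 to 1.71) for miR-7-5p. The partial-match counts stood on the other side of 1, with 1525 in HF-R, 1876 in HF and 1629 in Cont for miR-7-5p and an HF/Cont ratio of 0.88 (0.82 to 0.94) for both names.

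Hsa-/mmu-miR-3074-5p lies opposite miR-24-3p on chromosome 2 (31170663 to 31170683) and had 32 counts in HF-R, 52 in HF and 15 in Cont, against 17847, 32842 and 13133 for miR-24-3p, a miRNA of the cluster with miR-23 and miR-27. Its reads are miR-24-3p with its ends moved, and its HF/Cont ratio was 2.65 (1.47 to 5.07), with 1.91 (1.88 to 1.95) for miR-24-3p. Rno-miR-3596c had 428 counts in HF-R, 413 in HF and 276 in Cont, and let-7e-5p had 435, 420 and 284, all partial-match counts. All 351 reads listed for miR-3596c were also listed for let-7e-5p. Rno-miR-3590-5p, opposite miR-130a-3p, had 36 counts in HF-R, 101 in HF and 44 in Cont, with an HF/Cont ratio of 1.76 (1.22 to 2.56), which was 1.38 with TMM and then not called.

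Hsa-miR-3591-3p, opposite miR-122-5p, the most abundant miRNA of liver, had 16 counts in HF-R, 38 in HF and 4 in Cont. Its HF/Cont ratio of 7.27 (2.62 to 28.0) was the highest among the late-numbered entries averaging 10 or more, and all 41 of its listed reads were also listed for miR-122-5p. Partial-match counts of miR-122-5p were 16, 39 and 4 in the same libraries. Its perfect-match counts were 3 in HF-R, 36 in HF and 3 in Cont, with an HF-R/Cont ratio of 0.79 (0.11 to 5.87). Rno-miR-3556b, opposite miR-29c-3p of the miR-29 family that targets collagen mRNAs, had 17 counts in HF-R, 32 in HF and 6 in Cont, with an HF/Cont ratio of 4.08 (1.68 to 11.9). Of its 35 listed reads 33 were also listed for miR-29c-3p.

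A further 5 entries shared reads with a conserved miRNA at loci elsewhere, 4 of them short and in the same sense. Hsa-miR-4291, 16 nt long, was listed at 4 places in the genome. It had 25567 counts in HF-R, 30216 in HF and 18005 in Cont, the highest of the late-numbered partial matches. Its first 14 bases are the last 14 of miR-24-3p, and 460 of its 469 listed reads were also listed for miR-24-3p. None of its ratios reached 1.5, and its HF/Cont ratio of 1.28 (1.26 to 1.31) stood beside 1.40 (1.38 to 1.42) for the partial-match counts of miR-24-3p, which were 48497 in HF-R, 63841 in HF and 34857 in Cont.

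Hsa-miR-4328 had 1643 counts in HF-R, 1424 in HF and 1034 in Cont. It shares 15 bases with miR-145-5p, a miRNA of smooth muscle, and 380 of its 381 listed reads were also listed there. Hsa-miR-4318 had 535 counts in HF-R, 666 in HF and 417 in Cont, shares 12 bases with miR-106b-3p, and had 128 of 132 reads in common with it. Hsa-miR-4262 (18, 10 and 9 counts in HF-R, HF and Cont) shared 7 of 9 reads with miR-199a-5p, a miRNA of fibroblasts, and mmu-miR-1187 (40, 34 and 41 counts), built largely of TG repeats, shared 55 of 107 reads with conserved names, most often miR-466b-3p of the repeat-like miR-466 family, of which it holds 17 bases as the reverse complement. None of these 5 entries was called higher or lower in any comparison as scaled here. Together they held 13.6% of all counts of late-numbered entries as deposited, repeats included. With TMM, miR-4328 and miR-4262 were called higher in HF-R than in HF, at 1.52 and 2.36, and miR-1187 was called lower in HF than in Cont, at 0.50 (0.54 with DESeq2).

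Hsa-miR-4306 and rno-miR-3586-5p had no listed read in common with a conserved name in the tables used here. MiR-185-5p and miR-339-5p are not among those names, so a read shared with them could not be found this way. Of the 463 reads listed for miR-4306, 58.7% held the first 16 bases of miR-185-5p, and of the 457 reads listed for miR-3586-5p, 77.5% held the first 16 bases of miR-339-5p. MiR-4306 had 2995 counts in HF-R, 4011 in HF and 1990 in Cont, with an HF/Cont ratio of 1.54 (1.46 to 1.63), which with TMM or DESeq2 scaling was 1.21 or 1.32 and no longer called. MiR-3586-5p had 2269 counts in HF-R, 2805 in HF and 1581 in Cont, with an HF/Cont ratio of 1.36 (1.28 to 1.45). As scaled here, both were highest in HF and lowest in Cont. The HF-R/HF ratio of miR-3586-5p was 0.83, but 1.06 with TMM and 1.01 with DESeq2, which puts HF-R slightly above HF.

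The remaining 18 entries averaging 10 counts or more had no conserved partner by locus or by listed reads, of which 7 were perfect and 11 partial matches. They held 1.83% of all counts of late-numbered entries as deposited, repeats included. For 6 of them the entry sequence is given with the seed in capitals, followed, for 4, by the stretch of 20 bases found in the most listed reads (51.2% of them for miR-1973, 67.7% for miR-4484, 38.2% for miR-4532 and 18.3% for miR-7977), in which capitals mark the run shared with the entry (for miR-4484, with its reverse complement).
hsa-miR-1307-3p: aCTCGGCGtggcgtcggtcgtg
hsa-miR-1343-3p: cTCCTGGGgcccgcactctcgc
hsa-miR-1973: aCCGTGCAaaggtagcata
hsa-miR-1973 reads: ttctgACCGTGCAAAGGTAG
hsa-miR-4484: aAAAGGCGggagaagcccca
hsa-miR-4484 reads: ctgccGGGGCTTCTCCCGCC
hsa-miR-4532: cCCCGGGGagcccggcg
hsa-miR-4532 reads: ccgcCCCCGGGGAGCCCGGC
hsa-miR-7977: tTCCCAGCcaacgcacca
hsa-miR-7977 reads: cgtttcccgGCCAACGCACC

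Among the partial matches of this kind, miR-4484, miR-4532, miR-3963 and miR-7977 were called higher in HF than in Cont. Hsa-miR-4484 had 217 counts in HF-R, 578 in HF and 136 in Cont, with an HF/Cont ratio of 3.25 (2.69 to 3.95) and an HF-R/HF ratio of 0.39 (0.33 to 0.45). Of its 260 listed reads 192 (73.8%) were opposite to the entry, and their median length was 27 nt, against 22 nt for reads listed under conserved names. Hsa-miR-4532, 94.1% G and C, had 19 counts in HF-R, 119 in HF and 23 in Cont, with an HF/Cont ratio of 3.96 (2.52 to 6.49) and an HF-R/HF ratio of 0.16 (0.10 to 0.27). Only the HF library was high in both.

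Mmu-miR-3963 had 564 counts in HF-R, 1547 in HF and 512 in Cont, with an HF/Cont ratio of 2.31 (2.09 to 2.56). Hsa-miR-7977 had 116 counts in HF-R, 198 in HF and 74 in Cont, with an HF/Cont ratio of 2.05 (1.56 to 2.71). CCA is the end that cells add to tRNAs, and it ended 64 of 340 reads listed for miR-3963 (18.8%), 31 of 260 for miR-4484 (11.9%) and 40 of 109 for miR-7977 (36.7%), against 0.762% of the 91694 listed reads of conserved names. The miR-7977 and miR-4484 entries themselves end in these bases. Among other entries without a partner, CCA ended 0 of 102 reads of miR-4532, 7 of 34 of hsa-miR-1261 (20.6%), which was called lower in HF, and 8 of 58 of mmu-miR-1306-5p (13.8%), which was not called. Hsa-/rno-miR-1306-5p, another entry that ends in CCA, was listed with a single read per library.

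Hsa-miR-1973, whose place in the merged table is the mitochondrial genome (2020 to 2038, plus strand), went the other way. As a partial match it was listed at 5 places. It had 825 counts in HF-R, 524 in HF and 458 in Cont, and its HF-R/HF ratio of 1.62 (1.45 to 1.81) was the one call higher in HF-R than in HF, though at 1.49 it was not called when scaled to the hsa-, mmu- and rno-table alone. All 406 of its listed reads were in the sense of the entry, with a median length of 26 nt.

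The perfect matches without a partner listed their own sequence. Mmu-/rno-miR-1839-5p had 622 counts in HF-R, 891 in HF and 419 in Cont, with an HF/Cont ratio of 1.63 (1.45 to 1.83). That ratio was 1.28 with TMM and 1.39 with DESeq2 scaling and then not called. The partial-match counts of miR-1839-5p were 918 in HF-R, 1072 in HF and 635 in Cont. Their HF/Cont ratio was 1.29 (1.17 to 1.43), short of a call. Hsa-miR-1307-3p had 195 counts in HF-R, 386 in HF and 252 in Cont, with an HF-R/HF ratio of 0.52 (0.43 to 0.62) and an HF-R/Cont ratio of 0.61 (0.50 to 0.74). The partial-match counts of miR-1307-3p were far larger, at 5002 in HF-R, 5999 in HF and 5411 in Cont. Their HF-R/Cont ratio was 0.73 (0.70 to 0.76), short of a call. Their HF/Cont ratio was 0.85 (0.82 to 0.88), against 1.17 (1.00 to 1.38) for the perfect matches. The other arm, hsa-miR-1307-5p, had 91, 133 and 88 counts in HF-R, HF and Cont, and no ratio of that arm passed 1.5 as scaled here. Scaled to the hsa-, mmu- and rno-table alone, the HF-R/HF ratio of that arm was 0.65 and called lower. Hsa-miR-1343-3p, at 285 counts in HF-R, 390 in HF and 313 in Cont, was called in no comparison as scaled here. Its HF-R/Cont ratio was 0.65 and called lower when scaled to that 1 table. Its partial-match counts were 791 in HF-R, 636 in HF and 733 in Cont, with an HF/Cont ratio of 0.66 (0.60 to 0.74).

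Hsa-miR-3607-3p, traced in human to a snoRNA, had 58 counts in HF-R, 91 in HF and 103 in Cont, with an HF-R/Cont ratio of 0.44 (0.32 to 0.62). The lowest HF/Cont ratios between 10 and 100 mean counts belonged to mmu-miR-6516-3p (28 counts in HF-R, 19 in HF and 46 in Cont; 0.32, 0.17 to 0.55), hsa-miR-2355-3p (11, 6 and 13 counts; 0.35, 0.11 to 1.00) and hsa-miR-1261 (10, 14 and 26 counts; 0.41, 0.20 to 0.82). All 3 had Cont as the highest library. Other counts of these entries ran the other way. Hsa-miR-6516-3p, a perfect match 1 nt away from the mouse form, had 7 counts in HF-R, 18 in HF and 4 in Cont, with an HF/Cont ratio of 3.44 (1.13 to 14.0), and the partial-match counts of miR-2355-3p were 37 in HF-R, 53 in HF and 25 in Cont, with a ratio of 1.62 (0.99 to 2.73).

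**Figure D3:**
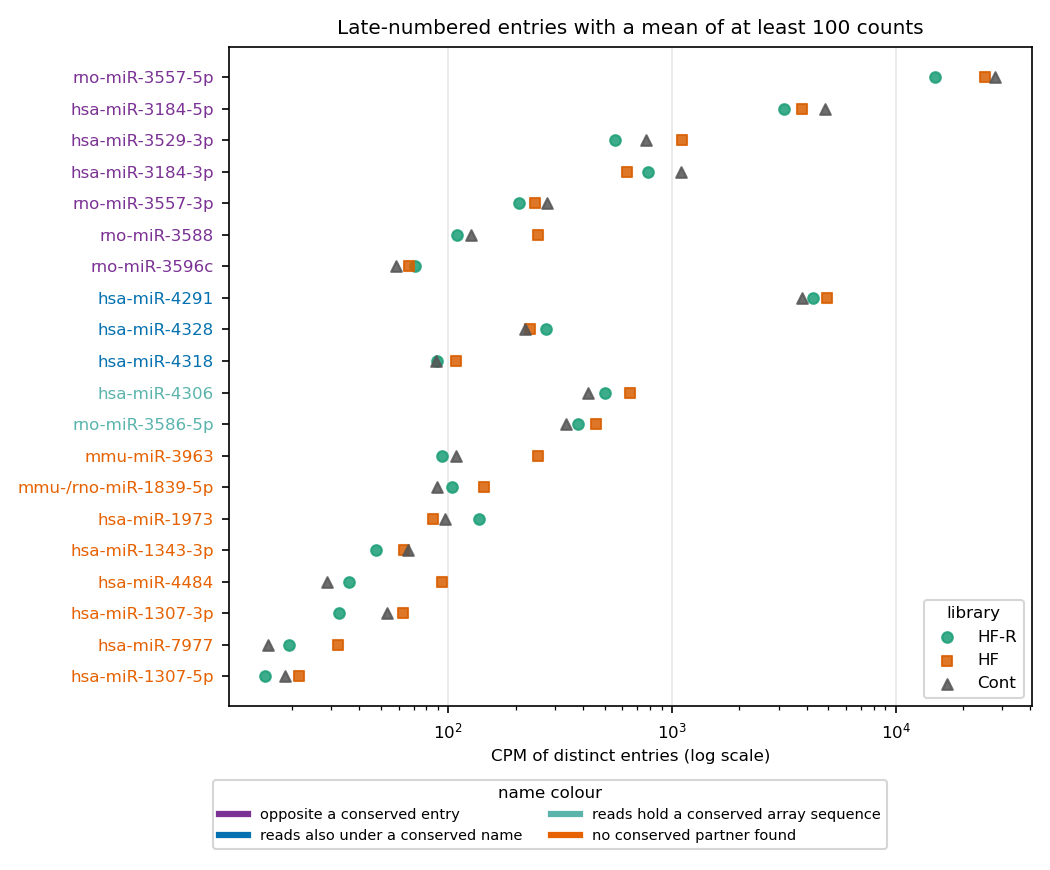
CPM (log scale) of the 20 late-numbered entries averaging 100 counts or more in the HF-R, HF and Cont libraries, with 1 point per library and names coloured by relation to conserved miRNAs. The levels run from miR-3557-5p, at 15053 CPM in HF-R, 25171 in HF and 27924 in Cont, to miR-1307-5p, at 15.2, 21.6 and 18.7 CPM.

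In HF against Cont, 13 of the 43 entries (30.2%) were called higher and 5 (11.6%) lower, and over all 356 distinct entries averaging 10 or more the same rule called 22.8% higher and 7.87% lower. The median HF/Cont ratio was 1.15 for the 43 and 1.12 for all 356. The 13 consisted of 7 opposite a conserved entry, 5 of the 18 without a partner, and miR-4306. With edgeR's TMM scaling, which lowers every HF/Cont ratio by 0.35 on the log2 scale, the calls were 10 higher and 10 lower, and over all entries 11.8% higher and 20.8% lower. With DESeq2's size factors they were 11 and 9, and over all entries 14.6% and 14.9%.

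In HF-R against Cont, 2 of 43 (4.65%) were called higher and 7 (16.3%) lower, against 4.78% and 11.2% over all 356. The 2 higher were miR-3591-3p and rno-miR-3596d, which lies opposite let-7f-5p. MiR-3591-3p had a ratio of 3.15 (1.01 to 12.9), not called when scaled to the hsa-, mmu- and rno-table alone. The perfect-match counts of its partner miR-122-5p had a ratio of 0.79. Rno-miR-3596d had 29 counts in HF-R, 34 in HF and 8 in Cont and a ratio of 2.85 (1.27 to 7.22). The median HF-R/Cont ratio was 0.83 for the 43 and 0.98 for all 356. Scaled to the hsa-, mmu- and rno-table alone, 1 was higher and 11 were lower, and over all entries 3.93% and 17.7%. In HF-R against HF, 1 of 43 (2.33%) was called higher and 12 (27.9%) lower, against 5.06% and 23.3%, and the medians were 0.77 and 0.82. With TMM, 5 were higher and 8 lower, and over all entries 16.3% were higher and 9.27% lower. The comparisons share libraries in pairs, so they are not independent of each other, and the entries share reads, so they are not separate measurements.

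**Figure D4:**
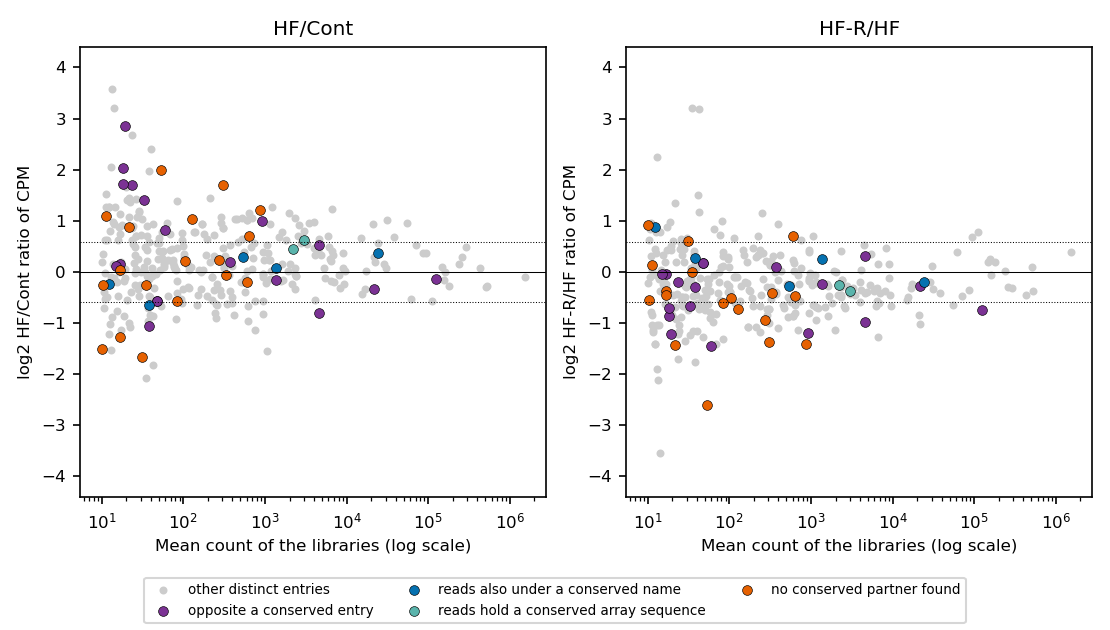
Log2 ratio of CPM for HF/Cont (left) and HF-R/HF (right) against the mean count of the libraries (log scale), for distinct entries averaging 10 counts or more (grey) and the 43 late-numbered entries (coloured by relation to conserved miRNAs). Dotted lines mark a ratio of 1.5 in each direction. MiR-3591-3p (7.27) is highest of the coloured points for HF/Cont, and miR-4532 (0.16) is lowest for HF-R/HF.

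Lists of entries by kind had few abundant members. A list drawn up by name, of entries taken as antisense to a gene or miRNA, held 25 late-numbered entries. It is not the set of opposite-strand entries found here. It holds hsa-miR-3618 (mean 4 counts), which had no conserved entry opposite it, and lacks rno-miR-3556b. Of the 25, 17 reached an average of 10 counts, with 6 called higher and 2 lower in HF against Cont (22.8% and 7.87% over all entries). In HF-R against Cont 2 were higher and 3 lower (4.78% and 11.2%), and in HF-R against HF 0 were higher and 5 lower (5.06% and 23.3%). Of 8 entries traced in human or mouse to other RNAs (miR-1246 to U2 snRNA, miR-1248, miR-3607 and miR-3653 to snoRNAs, miR-1260a and miR-1983 to tRNAs, miR-1973 and miR-4485 to mitochondrial RNA), only miR-1973 and miR-3607-3p reached a mean of 10 counts. Of 9 entries that end in CAG, the bases at the 3′ end of introns, and carry numbers from 6000 on or are miR-1224, mmu-miR-6516-3p and hsa-miR-6756-3p reached it.

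Seeds were shared with conserved entries by 14 of the 124, and 7 of these averaged 10 counts or more. One was miR-3184-5p, the seed of which is that of miR-423-5p, and another was hsa-miR-4262, with the seed of miR-181a-5p. Hsa-miR-1297 (mean 8.67 counts) has the seed of miR-26a-5p. Since most listed reads of the opposite-strand entries lie on the other strand, the seed of such an entry is not the seed of its reads.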

How the data were processed

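The authors compared reads of 15 to 30 nt with the miRNAs of miRBase, using Blast, and placed them on the sheep genome build Oar v4.0 by Bowtie. Perfect matches and matches of 70 to 99% were kept, and tool versions are not given in the sources used here. What was deposited is an unscaled read count for each entry and library, and a blank cell was taken as 0 in a ratio. Of 298 counts of late-numbered entries, 289 equal those in the deposited table of each library, 3 differ and 6 have no value there. Columns with the authors' mean were not used.

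Entries were taken by their number, and named entries are those averaging 100 counts or more, the 3 highest and 3 lowest HF/Cont ratios between 10 and 100, those with counts equal to an opposite-strand entry, and list members as examples. Others named were chosen after their values were seen. The members, lists and this rule were chosen with earlier results of these data known. A listed read was called opposite where its longest exact run was longer with the reverse complement. A library with 0 counts has a limit of 3 counts (0.501 CPM in HF-R, 0.487 in HF and 0.637 in Cont). PCR reads without molecular identifiers are not independent molecules. Alternatives were TMM (edgeR 4.0.16), DESeq2 1.42.0 size factors, the total of 1 table, other filters and thresholds, and other overlaps. The ratio code was tested on simulated data. Python 3.11.15, numpy 2.4.6, pandas 2.3.3, scipy 1.17.1, matplotlib 3.10.9 and R 4.3.3 were used. Per-read counts and a genome sequence were not used here.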

Additional observations from a re-analysis of the deposited data

Results flagged for a closer look

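The tables of each library also hold counts of the match class that the merged table does not use for an entry. For 3 late-numbered entries listed as perfect matches, these partial-match counts were at least 10 times the merged counts in every library, at least 100, and 1.5-fold or more higher in HF than in Cont. Rno-miR-3574, opposite miR-210-3p, had 381 partial-match counts in HF-R, 625 in HF and 218 in Cont (HF/Cont ratio 2.19). The partial-match counts of miR-210-3p are the same in each library. Mmu-miR-3074-2-3p had 1198, 1708 and 821 (1.59, 1.46 to 1.73), and hsa-/mmu-/rno-miR-3074-3p had 1132, 1718 and 793 (1.66, 1.52 to 1.81), both opposite 5p arms of miR-24. On the log2 scale every HF/Cont ratio shifts by -0.35 with TMM and by -0.22 with DESeq2 size factors. Either shift takes both miR-3074 ratios below 1.5, but not that of miR-3574. The cause of the larger partial-match counts was not tested.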

How the results depend on the processing

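No paired analysis was possible because each group has 1 pooled library, and for the same reason no library could be left out. The count called higher in HF/Cont (13) was 6 with a mean of at least 100 counts. The count called lower in HF/Cont (5) was 10 with TMM, 9 with DESeq2's size factors and 1 with a mean of at least 100. In HF-R/Cont, the count higher (2) was 1 with the total of the hsa-, mmu- and rno-table and 0 with a mean of at least 100, and the count lower (7) was 11 with that total, 3 with a mean of at least 100 and 4 at a ratio of 2. In HF-R/HF, the count higher (1) was 5 with TMM, 2 with DESeq2, 0 with the total of that table and 0 at a ratio of 2, and the count lower (12) was 7 with a mean of at least 100 and 7 at a ratio of 2. A mean of at least 100 counts left 20 entries to test, while a ratio of 2 was applied to all 43. With repeats counted, the share of late-numbered entries was 2.46% in HF-R, 3.58% in HF and 3.79% in Cont. The 27 opposite-strand entries stayed 27 at 15 nt or 1 nt, and 32 entries with a shared run became 35 at 12 bases and 29 at 16. In HF-R/HF, miR-3184-3p was called higher with TMM (1.58) and DESeq2, and miR-6516-3p with TMM (1.94), while miR-7977 (0.77 and 0.73) and miR-3607-3p (0.84 and 0.80) were not called lower with TMM or DESeq2, nor miR-3591-3p with TMM (0.55). In HF/Cont, miR-3184-5p was called lower with TMM (0.62), and miR-3607-3p (0.53 and 0.58) and both miR-3065-3p entries (0.53 and 0.58) with TMM and DESeq2. None of the called ratios of the 43 entries changed direction with TMM, DESeq2 or the total of the hsa-, mmu- and rno-table.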

Other observations

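Values that no count of calls used include a few large counts of the other match class. Hsa-/mmu-miR-3074-5p had 47609 partial-match counts in HF-R, 62722 in HF and 34291 in Cont, beside 32, 52 and 15 in the merged table. MiR-24-3p, opposite it, had 48497, 63841 and 34857 partial-match counts in the same libraries. Hsa-miR-1307-3p had 5002, 5999 and 5411, beside 195, 386 and 252. Hsa-miR-1246, traced in human to U2 snRNA, had 1627, 774 and 796, with HF-R highest, and is listed in the merged table with 2 counts in HF-R and 2 in Cont. Hsa-miR-4508 had 60 partial-match counts in HF-R, 327 in HF and 50 in Cont, an HF/Cont ratio of 5.01. Among late numbers, 10 names with perfect-match counts and 55 with partial-match counts stand in the tables of each library and not in the merged tables.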
